A study of Mus musculus with 2 samples.

Results

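Mir149, Mir326, Mir342, Mir346, Mir488, Mir708 and Mir874 are microRNA (miRNA) genes that lie in introns of protein-coding genes, several of which are known from neurons. They were taken by name from the annotation used for the counts, and are 7 of 2202 annotated mouse miRNA genes. Their reads were counted in small RNA libraries (inserts under 30 bases, per the labels) of total RNA from hippocampus, labelled as layer of hippocampus tissue. The source was 36-day-old female mice of the strain B6CASTF1/J, a first-generation cross of C57BL/6J with CAST/EiJ. The study held 1 group of 2 libraries, biological replicates 1 and 2, with no treatment, second tissue or second age. Both carry the same donor entry in the labels, and nothing says that they came from separate animals, so their spread may be partly technical.

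A miRNA is cut from a hairpin in a longer transcript, loaded into an Argonaute protein and pairs through its seed, bases 2 to 8 of the mature strand, with messenger RNAs that it represses. An intronic miRNA on the strand of its host gene can be made from the host's own transcript, so that host and miRNA may share a promoter, although some intronic miRNAs are known to have start sites of their own. Either side of the hairpin, the 5p or the 3p arm, can become the mature miRNA. The deposited counts are per hairpin gene, so the arms were not told apart here. Host messenger RNA was not measured in these small RNA libraries, and whether the host genes were active in the neurons of this tissue was therefore not tested.

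The mature sequences are shown because they define what each gene can target and how well its reads can be placed. RefSeq (build GRCm38.p6) held them for 6 of the 7 genes, all but Mir874. Each is written 5′ to 3′ with its seed in capitals.
miR-149-5p: uCUGGCUCcgugucuucacuccc
miR-149-3p: gAGGGAGGgacgggggcggugc
miR-708-5p: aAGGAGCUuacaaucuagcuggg
miR-708-3p: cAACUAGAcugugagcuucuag
miR-342-5p: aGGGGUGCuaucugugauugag
miR-342-3p: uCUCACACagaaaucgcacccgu
miR-326-5p: gGGGGCAGggccuuugugaaggcg
miR-326-3p: cCUCUGGGcccuuccuccagu
miR-346-5p: uGUCUGCCcgagugccugccucu
miR-346-3p: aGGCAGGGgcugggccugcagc
miR-488-5p: cCCAGAUAauagcacucucaa
miR-488-3p: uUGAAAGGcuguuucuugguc

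The 12 arms carried 12 distinct seeds, so that no seed was shared among the 6 genes. None of the 12 arms was found whole, on either strand, in any GENCODE M21 transcript other than its own gene's among 141767 searched. Genome sequence outside transcripts was not searched here. Reads with several equally good places were counted apart from genes, so a sequence held by many genes would lose reads. RefSeq held hairpins for 6 genes, all but Mir708. The shortest are shown, those of Mir149 with its arms in capitals and of Mir874, in which no arm is marked.
Mir149 hairpin (GRCm38.p6, chr1:92850378-92850443, plus strand): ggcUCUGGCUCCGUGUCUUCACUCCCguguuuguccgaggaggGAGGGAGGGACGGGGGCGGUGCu
Mir874 hairpin (GRCm38.p6, chr13:58023125-58023200, minus strand): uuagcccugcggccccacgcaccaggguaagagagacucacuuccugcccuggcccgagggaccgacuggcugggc

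G and C made up 68.2% of the Mir149 hairpin, 68.4% of Mir874, 65.3% of Mir346, 60.0% of Mir326, 51.5% of Mir342 and 42.2% of Mir488. Over all 1005 RefSeq hairpins the median was 51.7%, with quartiles of 45.0% and 57.7%. Mir149, Mir326, Mir346 and Mir874 thus lay above the upper quartile and Mir488 lay below the lower quartile. The predicted folding energy ran from -36.1 kcal/mol for the Mir874 hairpin to -50.8 kcal/mol for that of Mir326.

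All 7 hairpins lay on the strand of their host and touched none of its annotated exons (GENCODE M21, assembly mm10, intron numbers in the principal transcript). Mir708 (chromosome 7, 96249424 to 96249532) lies in intron 1 of Tenm4, which encodes a teneurin, a transmembrane adhesion protein of neurons, in an intron of 143 kb. Mir346 (chromosome 14, 34894609 to 34894706) lies in intron 2 of Grid1, which encodes a delta-type glutamate receptor subunit, in an intron of 123 kb. Mir488 (chromosome 1, 158505625 to 158505733) lies in intron 5 of Astn1, astrotactin, an adhesion protein of neurons migrating along glia. Its intron is 4.38 kb long and the hairpin starts 155 bases after the upstream exon, the shortest such distance of the 7.

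Of the remaining hosts, Arrb1 and Evl encode cytoplasmic proteins found in many cell types. Mir326 (chromosome 7, 99552269 to 99552363) lies in intron 1 of Arrb1, β-arrestin 1, which uncouples G protein-coupled receptors. Mir342 (chromosome 12, 108658620 to 108658718) lies in intron 3 of Evl, an actin regulator of the Ena/VASP family that is also known from leukocytes. Mir149 lies in intron 1 of Gpc1, glypican 1, a heparan sulfate proteoglycan, and Mir874 in intron 8 of Klhl3, a ubiquitin ligase adaptor best known from the kidney. The word neuronal therefore fits Tenm4, Grid1 and Astn1 better than the other 4 hosts, from background knowledge and not from these data.

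**Figure D1:**
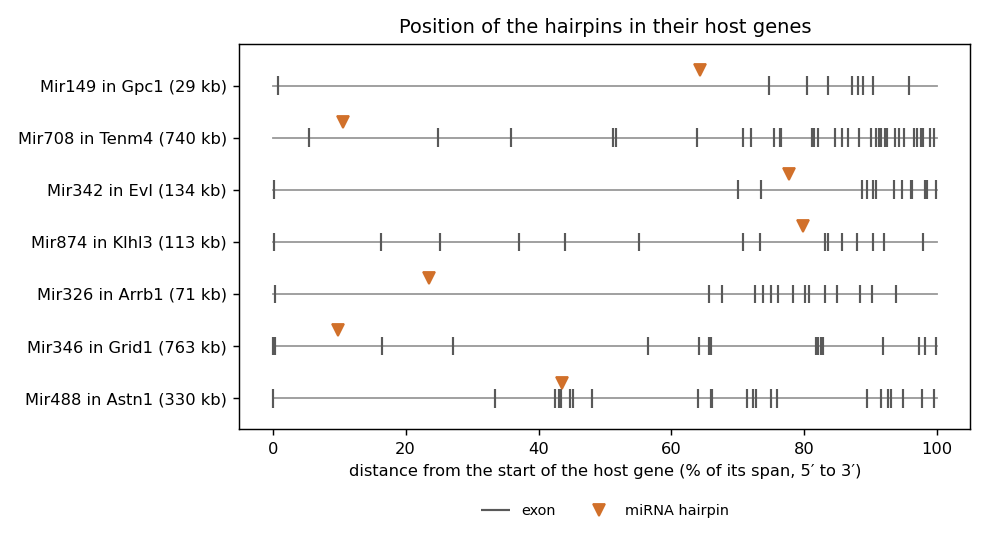
Position of each hairpin (triangle) in its host gene, as percent of the host's span from its annotated start, with exons of the principal transcript as vertical marks and the span in kb beside each name. The hairpins of Mir346 and Mir708 lie 9.76% and 10.6% along their hosts, and those of Mir342 and Mir874 77.7% and 79.7% along theirs.

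The hairpins of Mir149, Mir326 and Mir708, 3 of 7, were in a first intron (42.9%), as were 138 of 717 other miRNA genes in same-strand introns of protein-coding genes (19.2%). The median intron was 21.2 kb for the 7 and 10.6 kb for the 717. The median host span was 134 kb for the 7 and 85.9 kb for the 717. With 7 genes picked by name these are descriptions. A second annotated miRNA gene shared a host with only Mir708, namely Mir6394 in the same first intron of Tenm4. Mir6394 had 0 reads in both libraries, which allows at most 1.02 CPM in replicate 1 and 0.823 CPM in replicate 2, whereas Mir708 had 8068 and 9143 reads.

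Levels are given as counts per 1000000 reads on miRNA genes (CPM), from totals of 2928141 reads in replicate 1 and 3644157 in replicate 2, and as mean ± SD with n = 2. A minimum of 10 reads per library was met by all 7 genes, against 376 of 2202 miRNA genes (17.1%). Mir149 was the highest of the 7, with 14462 reads and 4939 CPM in replicate 1 and 14413 reads and 3955 CPM in replicate 2 (4447 ± 696 CPM). It ranked 42nd of all miRNA genes.

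Among the genes in hosts of neuronal adhesion and signalling, levels spread widely. Mir708 had 2755 CPM in replicate 1 and 2509 CPM in replicate 2 (2632 ± 174 CPM, rank 54), and the libraries lay closer together than for any other of the 7. For Mir346 the values were 354 and 609 CPM (481 ± 180 CPM, rank 136), with replicate 1 the lower. Mir488, the lowest of the 7, had 947 and 941 reads, or 323 and 258 CPM (291 ± 46.1 CPM, rank 154). The miRNA in Tenm4 thus stood above those in Grid1 and Astn1 in both libraries.

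Mir342, Mir874 and Mir326 had means between those of Mir708 and Mir346. Mir342 in Evl had 1471 CPM in replicate 1 and 2246 CPM in replicate 2 (1859 ± 548 CPM, rank 71). Mir874 in Klhl3 had 1004 and 1563 CPM (1284 ± 396 CPM, rank 84), again with replicate 1 the lower. Mir326 in Arrb1 had 858 and 538 CPM (698 ± 226 CPM, rank 115), with replicate 1 the higher. In bulk tissue, fewer cells of a type and less miRNA per cell cannot be told apart.

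**Figure D2:**
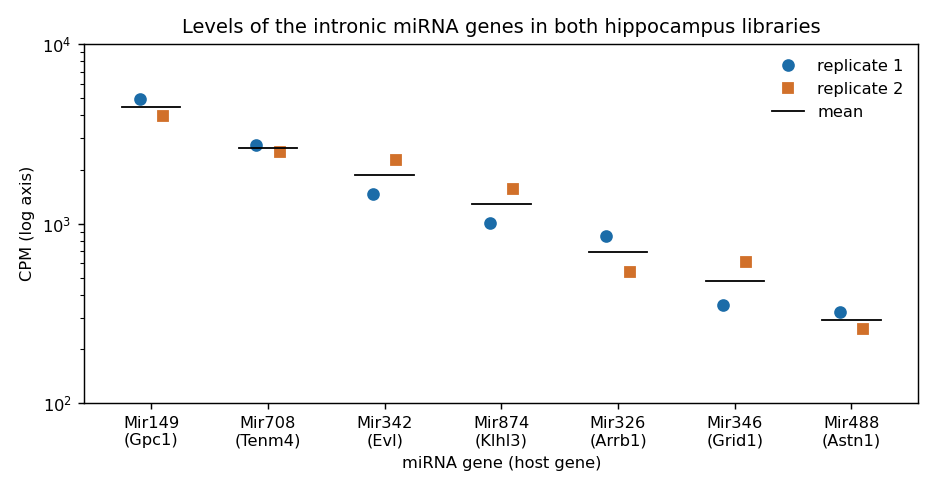
CPM (log axis) of the 7 miRNA genes, with the host gene in brackets, in replicate 1 (circles) and replicate 2 (squares), and the mean as a bar. Means run from 4447 CPM for Mir149 to 291 CPM for Mir488, and replicate 1 lies below replicate 2 for Mir342, Mir874 and Mir346.

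The order by mean was Mir149, Mir708, Mir342, Mir874, Mir326, Mir346 and Mir488. It was the same when CPM was divided by hairpin length, which was tried because the hairpins run from 66 to 109 bases. Neighbours in this order differed in mean by more than the larger of their SDs, and in the same direction in each library, except for Mir326 and Mir346. Mir326 was 2.42 times Mir346 in replicate 1 and 0.883 times in replicate 2, so their order was not fixed. The gap from Mir342 to Mir874 (575 CPM) was barely above the larger SD (548 CPM), although Mir342 was 1.47 and 1.44 times Mir874 in replicates 1 and 2. That from Mir346 to Mir488 (191 CPM) was likewise close to the larger SD (180 CPM). Mir708 was 1.87 times Mir342 in replicate 1 and 1.12 times in replicate 2. Differences in ligation and amplification between sequences can also shift levels between miRNAs, and their part was not tested.

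Set beside other intronic miRNAs, all 7 lay in the upper part of the range. Of 717 other miRNA genes in same-strand introns of protein-coding genes, 138 (19.2%) met the same minimum and are called detected here, and 413 had no read. The genes without a read include repeated copies in introns of Sfmbt2 and predicted genes, and reads with several places were counted apart from genes. The median level was 1284 CPM for the 7 and 0 CPM for the 717, or 65.3 CPM for the 138 that were detected. At least 1000 CPM were reached by Mir149, Mir708, Mir342 and Mir874, which are 4 of 7 (57.1%), and by 29 of the 717 (4.04%). Among all 724 the 7 held ranks 14, 20, 25, 30, 38, 45 and 50. The leading intronic gene, Mirlet7g, had 120442 CPM.

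**Figure D3:**
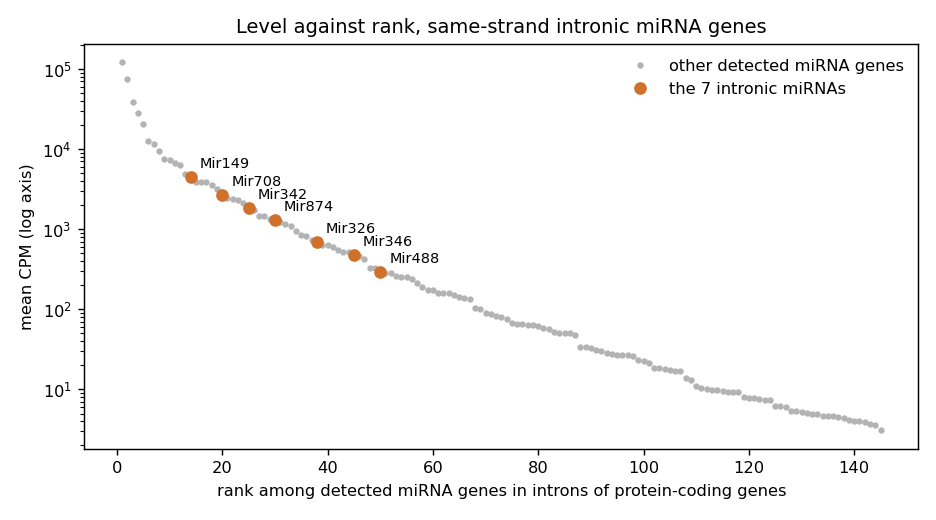
Mean CPM (log axis) against rank for the 145 detected miRNA genes in same-strand introns of protein-coding genes, with the 7 genes as large points. They lie between ranks 14 and 50, spread along the curve rather than at 1 level.

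Together the 7 genes held 34272 reads in replicate 1 and 42559 in replicate 2. Their share of miRNA gene reads was 1.17% in each library, and the exact 95% interval (Clopper-Pearson, counting error only) ran from 1.16% to 1.18% in each. The intervals of the summed share overlapped, while single genes differed in opposite directions.

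A two-sided exact binomial test compared the reads of each gene between replicates 1 and 2, with Benjamini-Hochberg adjustment over all 474 genes whose counts summed to at least 10. It sets 1 library against the other and allows for counting error alone, so it says nothing of a condition. All 7 genes were called at 0.05, beside 275 of 474 genes (58.0%). Well-counted genes were called more often: of the 147 others at or above the level of Mir488, 133 were (90.5%).

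Mir149, Mir326, Mir488 and Mir708 were higher in replicate 1 (4 of 7, against 26.4% of genes tested). Of the 147 others at or above the level of Mir488, 65 were called higher in replicate 1. The ratio of replicate 1 to replicate 2 was 1.60 for Mir326 (95% interval 1.503 to 1.69, adjusted p = 9.78e-54 by the exact test). It was 1.25 for Mir149 (1.22 to 1.28), 1.25 for Mir488 (1.14 to 1.37) and 1.10 for Mir708 (1.07 to 1.13). Mir326, with its host β-arrestin 1, was thus the furthest from equal in this direction.

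Mir342, Mir346 and Mir874 were lower in replicate 1 (3 of 7, against 31.6% of genes tested). Of the 147 others at or above the level of Mir488, 68 were called lower in replicate 1. For Mir346 the ratio of replicate 1 to replicate 2 was 0.581 (95% interval 0.539 to 0.626, adjusted p = 7.58e-49 by the exact test). It was 0.642 for Mir874 (0.614 to 0.671) and 0.655 for Mir342 (0.631 to 0.680). By host, Grid1, a receptor gene of neurons, stood with Evl and Klhl3, and Astn1 and Tenm4 stood with Gpc1 and Arrb1. The part of the kind of host in the differences was not tested. Hairpin GC content was 68.2%, 60.0% and 42.2% in Mir149, Mir326 and Mir488 and 51.5%, 65.3% and 68.4% in Mir342, Mir346 and Mir874, with no value computed for Mir708. The part of GC content in the differences was not tested.

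**Figure D4:**
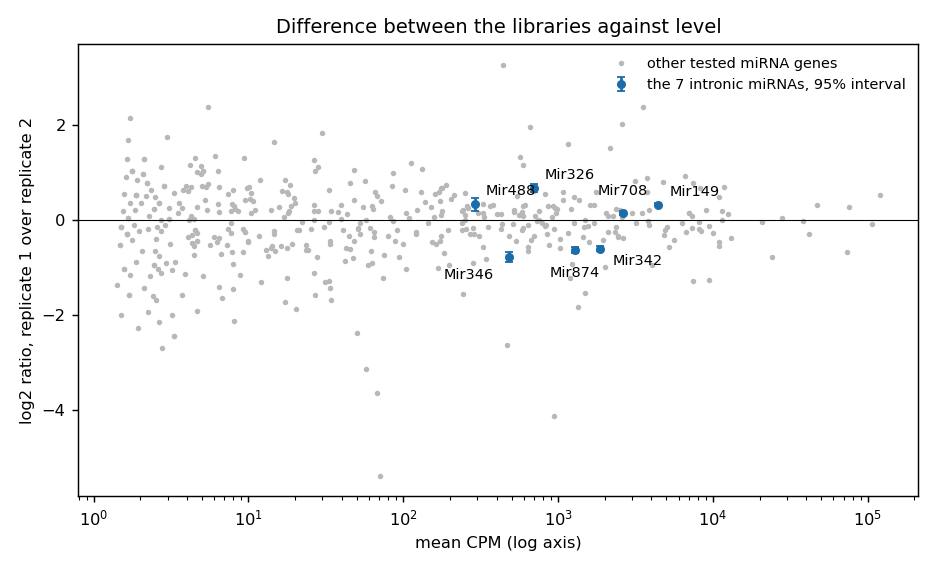
Log2 ratio of replicate 1 over replicate 2 against mean CPM (log axis) for the 7 genes, with exact binomial 95% intervals (counting error only), and for all other tested miRNA genes (grey). Mir149, Mir326, Mir488 and Mir708 lie above 0 and Mir342, Mir346 and Mir874 below, all within 2-fold.

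In size, these differences were within the range of the table. The median absolute log2 ratio was 0.61 for the 7 and 0.44 for all 474 genes tested, or 0.29 for the 147 others of like or higher level. None of the 7 differed by at least 2-fold, against 19.2% of the 474 and 10.2% of the 147. Fewer of the 7 lay under 1.5-fold: 3 of 7 (42.9%), against 61.8% of the 474 and 78.2% of the 147. The SD was 6.62% of the mean for Mir708 and 37.5% for Mir346, the extremes of the 7. What edgeR names the common biological coefficient of variation was 0.382, pooled over 399 genes. It is not the same measure as the SD of a single gene, and its spread may be partly technical.

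Marker miRNAs of other cell types also differed between the libraries. The summed level of 5 astrocyte markers was 17050 CPM in replicate 1 and 11722 CPM in replicate 2, with 5 of 5 called higher in replicate 1. For 3 oligodendrocyte markers it was 5352 and 2536 CPM (2 called higher in replicate 1), and for 3 red blood cell markers 1176 and 340 CPM (3 called higher in replicate 1). The 10 neuron markers summed to 37545 and 42684 CPM, with 3 called higher and 7 lower in replicate 1. Of these, Mir128-1 alone had 4326 and 10622 CPM, a larger difference than that of the neuron sum. The 5 microglia and leukocyte markers summed to 1589 and 1881 CPM (1 higher, 2 lower). The 3 vascular markers summed to 19436 and 15579 CPM (1 higher, 2 lower). Among them, Mir126a alone had 14516 and 8969 CPM, a larger difference than that of the vascular sum. The direction of the neuron sum and of the vascular sum thus rested on 1 gene each. No marker was at 0 in either library. Their part in the differences of the 7 genes was not tested.

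Seeds shared with other genes tie 2 of the 7 to abundant relatives, whose arms are shown with the seed in capitals to be set beside miR-708-5p and miR-326-3p above.
miR-28a-5p: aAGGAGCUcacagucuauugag
miR-330-5p: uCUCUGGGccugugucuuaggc

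The seed of miR-708-5p, AGGAGCU, is that of miR-28a-5p from Mir28a in an intron of Lpp. Mir708 was 2.13 times Mir28a in replicate 1 and 2.89 times in replicate 2, and Mir28a itself had 1296 and 867 CPM. The seed of miR-326-3p, CUCUGGG, is that of miR-330-5p. Here the relative was the higher: Mir330, which overlaps an exon of an annotated transcript of Eml2, had 9041 CPM in replicate 1 and 9945 CPM in replicate 2, or 10.5 and 18.5 times Mir326. Counts per gene do not say how much of either gene came from the arm with the shared seed.

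The other relatives were near or below the detection minimum. The seed of miR-149-3p, AGGGAGG, also occurs in Mir7016 (11 and 7 reads), Mir1943 (9 and 6 reads) and in Gm27775 and Gm27740 (0 reads each). That of miR-346-3p, GGCAGGG, occurs in Mir7001 (2 and 0 reads). No other mature sequence of the 1738 in the RefSeq table carried a seed of the 12 arms, and Mir342 and Mir488 had no relative by seed.

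Written from general knowledge with earlier results of these data known, a list set these levels beside 20 other miRNAs in neuronal host genes. Counts were given for 19 of them, of which 17 were detected and 17 lay in a same-strand intron, since Mir330 and Mir592 overlap an exon of an annotated transcript of Eml2 and of Grm8. Its median was 144 CPM, against 1284 CPM for the 7 genes and 0 CPM for all miRNA genes. The highest were Mir139 in Pde2a, a phosphodiesterase gene (56692 CPM in replicate 1 and 91117 CPM in replicate 2), Mir330, Mir128-1 in R3hdm1 (4326 and 10622 CPM), Mir598 in Xkr6 (3085 and 3248 CPM) and Mir338 in Aatk (2112 and 1400 CPM). By the same exact test 2 of its 18 tested genes were called higher and 14 lower in replicate 1, beside 26.4% and 31.6% of all 474 genes tested. Of the list, 5 genes share the host Htr2c and are not independent. Mir338 is also among the oligodendrocyte markers above. Mir128-1 is among several genes shared with the neuron markers, so the calls of the list and of the markers partly repeat each other.

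With 2 libraries, a likeness of pattern says little more than a like level. The gene nearest to Mir708 in log2(CPM + 1) over both libraries was Mir674, at 2644 and 2538 CPM, and the gene nearest to Mir326 was Mir381, at 842 and 557 CPM. Mir93 (1653 and 2232 CPM) stood nearest to Mir342 and Mir128-2 in Arpp21 (850 and 1626 CPM) nearest to Mir874. For Mir149 it was Mirlet7f-2 (4150 and 3590 CPM), for Mir346 Mir421 (423 and 537 CPM) and for Mir488 Mirlet7f-1 (319 and 288 CPM). Distances ran from 0.06 for Mir326 to 0.31 for Mir346 on the log2 scale, over 2 libraries.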

How the data were processed

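The authors deposited whole-number read counts per miRNA gene, not normalized, with 3 unnamed columns a library. The notes deposited beside them name assembly mm10 and GENCODE M21, while no aligner or counter is named in the sources used here. Of the stranded columns, the middle one had the larger gene total in both libraries and was read as sense counts. The 4 rows naming no gene were left out (69.5% of reads in replicate 1, 65.3% in replicate 2, mostly reads with several places).

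All 2202 identifiers matched GENCODE M21, which gave symbols, positions and hosts (a same-strand gene that spans the hairpin, with no exon over it). CPM was taken over sense reads on miRNA genes, with a pseudocount of 1 CPM for log2 ratios. A count of 0 was taken to allow 3 counts. A chi-square over genes was 463 times its degrees of freedom, so the libraries are not copies. Reads from CAST/EiJ alleles were placed on the reference, and the effect was not tested.

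No condition could be tested, and no exact permutation of 2 samples can reach 0.05. The binomial test was checked on counts simulated with counting error alone, which cannot show how it fares on libraries with more spread than that. Mature sequences were sought in transcripts because no genome sequence was used. The text names the 7 genes, those sharing their host or a seed, the 5 highest genes of a list of other host miRNAs, and the nearest gene to each of the 7. Named besides are Mirlet7g as the highest intronic gene, Mir126a among the markers, and Mir592 and Mir873a of the list. Members, lists and tests were chosen with earlier results of these data known. Alternatives were counts without strand, other scalings (TMM in edgeR 4.0.16, DESeq2 1.42.0, a total that omits the top gene), filters, detection minima, a pseudocount of 0.1 CPM and omission of either replicate. Division by hairpin length and the check of the order in either replicate alone came after seeing the data. So did a test limited to genes at or above the lowest of the 7. Work was done in Python 3.11.15 with scipy 1.17.1, R 4.3.3 and ViennaRNA 2.7.2.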

Additional observations from a re-analysis of the deposited data

Results flagged for a closer look

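Mir708 alone of the 7 genes had antisense reads, 5 in replicate 1 and 7 in replicate 2, above the 3 counts that a count of 0 allows. They lie outside the sense counts used for its level, beside 8068 and 9143 sense reads. The other 6 genes had 0 antisense reads in both libraries. The source of the antisense reads was not tested.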

How the results depend on the processing

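No paired analysis was possible because the study has 1 group and no contrast. All 7 genes stayed detected with at least 5, 20 or 100 reads, without strand and in either library alone, and all 7 stayed called between the libraries, in the same direction, under TMM, DESeq2 scaling, totals without the most abundant gene, counts without strand, both other count filters, and in the added test of the 154 genes at or above the level of Mir488. The share of calls higher in replicate 1 over the whole table was 45.5%, with 49.6% under TMM and 53.0% with totals without the most abundant gene. Over all genes 263 of 723 (36.4%) were called with no filter, 232 of 295 (78.6%) with a summed count of at least 100, and 140 of 154 (90.9%) in the added test. The share called was 56.25% without strand, 57.8% under DESeq2 scaling, and 56.5% both under TMM and without the most abundant gene.

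Changing the total changed the levels: mean CPM moved by -0.306% to 0.278% under TMM, by 7.94% to 8.11% without strand and by 13.03% to 14.4% without the most abundant gene. By more than its SD moved only Mir708, to 2846 CPM without strand and 2998 CPM without the most abundant gene. All 7 genes rose by similar percentages in these settings, and Mir708 stood out because its SD was the smallest for its level (6.62% of the mean). Omission of either replicate cannot move a mean of 2 libraries by more than its SD, so that comparison could flag no gene. The share of reads on the 7 genes, with an SD of 0.00181 percentage points, moved to 1.26% without strand and to 1.33% without the most abundant gene. The median log2(CPM + 1) of the list of other host miRNAs was 7.18 and moved to 6.27 without strand, where Mir338 and Mir873a have 0 reads; that of the 7 genes was 10.3. With either replicate alone, means moved by -26.5% to 26.5%, and without replicate 1 Mir326 and Mir346 changed places, so 5 of 7 kept theirs. Depth limits the genes without reads, such as Mir6394, more than the 7.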
